A study of Mus musculus with 6 samples.

Results

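The genes described here are the serine, leucine and selenocysteine tRNA genes, taken as every annotated tRNA feature whose name gives Ser, Leu or SeC as its amino acid. They number 225 of the 869 tRNA genes with a read in any library, among 1753368 features in all. By name they comprise 190 Ser, 33 Leu and 2 SeC genes. Of these, 170 Ser, 3 Leu and 1 SeC carry only a number in place of an anticodon. The sources used here do not say whether those numbered features are functional genes, and their variable arm was not checked. The libraries come from eCLIP of mouse Gtsf1 (Asterix), a piRNA pathway protein with zinc fingers, in P19 cells, a mouse embryonal carcinoma line. In eCLIP, ultraviolet light ties RNA covalently to protein, the protein is purified from RNase-treated lysate, and the RNA that comes with it is sequenced beside RNA of the unpurified lysate, the input. Every library, controls included, was made from P19 cells transiently transfected with Gtsf1 carrying a TEV-Strep tag at its C-terminus and driven by the EF-1alpha promoter of pEF, so the bait was an overexpressed, tagged protein in 1 line. Cells irradiated at 254 nm gave 2 crosslinked inputs and 2 crosslinked pull-downs, called UV inputs and UV pull-downs below, and cells without irradiation gave 1 non-crosslinked input and 1 non-crosslinked pull-down, called no-UV. The labels do not say whether the numbered libraries came from separate cultures, so p-values measure only the spread between these libraries, which may be technical.

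Transfer RNAs carry amino acids to the ribosome and read codons through the 3 bases of the anticodon, and genes that share an amino acid and an anticodon form an isoacceptor. In mammalian cytosol the Ser, Leu and SeC tRNAs make up class II, which has an extended variable arm between the anticodon arm and the T arm, where other tRNAs have a short loop. Seryl-tRNA synthetase reads that arm and charges both tRNA-Ser and tRNA-SeC, and the serine on tRNA-SeC is then converted to selenocysteine, which is inserted at UGA codons of selenoprotein mRNAs.

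The libraries held from 13168593 to 18418166 reads, and 1 read was worth from 0.0543 to 0.0759 RPM, the unit of all levels below, in which counts are scaled to the total reads of the library. Exon counts of 11 markers of pluripotent cells summed to between 45.7 and 89.1 RPM, with Pou5f1 at 23.2 to 35.4 RPM and Lin28a at 12.3 to 26.6 RPM. Of that list, Dppa4 had no read in 5 of the libraries, and Nanog, Zfp42 and Esrrb stayed at or below 0.687, 0.158 and 0.217 RPM. The 10 markers of differentiated cells summed to between 2.86 and 7.78 RPM and were higher in the UV pull-downs (7.10 and 7.78 RPM) than in the UV inputs (3.62 and 3.40 RPM). Most of that difference lay in Gata6, at 0.310 and 0.615 RPM in the UV inputs and 3.13 and 3.00 RPM in the UV pull-downs, while T was lower in the pull-downs and Tubb3 was between 2.07 and 2.37 RPM in all 4. The pluripotent sum was lower in the UV pull-downs (62.4 and 61.4 RPM) than in the UV inputs (89.1 and 69.9 RPM). The part of these markers in the results below was not tested. A pull-down holds the RNA that came with the purified protein, so its marker levels do not count cells. In the inputs, which are bulk libraries, fewer cells of a type and less RNA per cell cannot be told apart.

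Summed by amino acid, all 3 groups were higher in the UV pull-downs than in the UV inputs, and SeC by far the most. The SeC sum was 7.05 and 6.14 RPM in UV inputs 1 and 2 and 124 and 336 RPM in UV pull-downs 1 and 2, against 13.7 RPM in the no-UV input and 21.6 RPM in the no-UV pull-down. The Leu sum was 18.2 and 16.6 RPM in the UV inputs, 91.1 and 214.5 RPM in the UV pull-downs, 13.8 RPM in the no-UV input and 36.0 RPM in the no-UV pull-down. The Ser sum was 13.7 and 6.93 RPM in the UV inputs, 56.1 and 139 RPM in the UV pull-downs, 6.22 RPM in the no-UV input and 9.22 RPM in the no-UV pull-down. In each group both UV pull-downs lay above the other 4 libraries, and UV pull-down 2 was the highest library.

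The mean SeC level was 230.0 ± 149 RPM in the UV pull-downs, against 6.59 ± 0.642 RPM for the inputs (SD, n = 2 each), a ratio of 34.9. For Leu the means were 153 ± 87.3 and 17.4 ± 1.14 RPM, a ratio of 8.78, and for Ser 97.5 ± 58.6 and 10.3 ± 4.81 RPM, a ratio of 9.44. The size of the ratio depended on the pull-down: against the mean input, SeC was 18.9 times higher in pull-down 1 and 50.9 times in pull-down 2. The quasi-likelihood test of edgeR, with p-values adjusted by Benjamini-Hochberg over the 39634 features of a table with tRNA genes summed by amino acid, gave log2 ratios of 5.22 for SeC (SE 0.53, adjusted p 0.00124), 3.23 for Leu (SE 0.42, adjusted p 0.00414) and 3.34 for Ser (SE 0.52, adjusted p 0.00946). All 3 were called higher, at an adjusted p under 0.05, as were 6.01% of all features and 17 of the 19 other amino acid groups of tRNA in that table. The separation of both UV pull-downs from both inputs was shared by 10.2% of all features and all 19 other groups. By fitted log2 ratio SeC ranked 3, Ser 15 and Leu 17 among those 22 groups. Without UV pull-down 2 the edgeR log2 ratios were 4.32 for SeC, 2.46 for Leu and 2.52 for Ser, with the spread taken from the inputs alone. TMM factors moved the median of all features by 0.20 on the log2 scale and the ratios to 5.45, 3.46 and 3.58, with all 3 still called. A replicate block ended the Ser call (edgeR adjusted p 0.0512), and testing every feature without a filter ended all 3 (edgeR adjusted p 0.489 for Ser, 0.349 for Leu and 0.242 for SeC).

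Single tRNA genes are uncertain where near-identical copies exist, because a read that matched several genes was divided between them. The counts were therefore also summed by anticodon, which gave 11 Ser, Leu and SeC isoacceptors. Of these, 10 reached a mean of 1 RPM in the 4 UV libraries and were tested, 8 of them with an input mean of at least 1 RPM. Ser-AGA and Leu-TAA reached that level through the pull-downs, and Ser-GGA stayed under it.

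**Figure D1:**
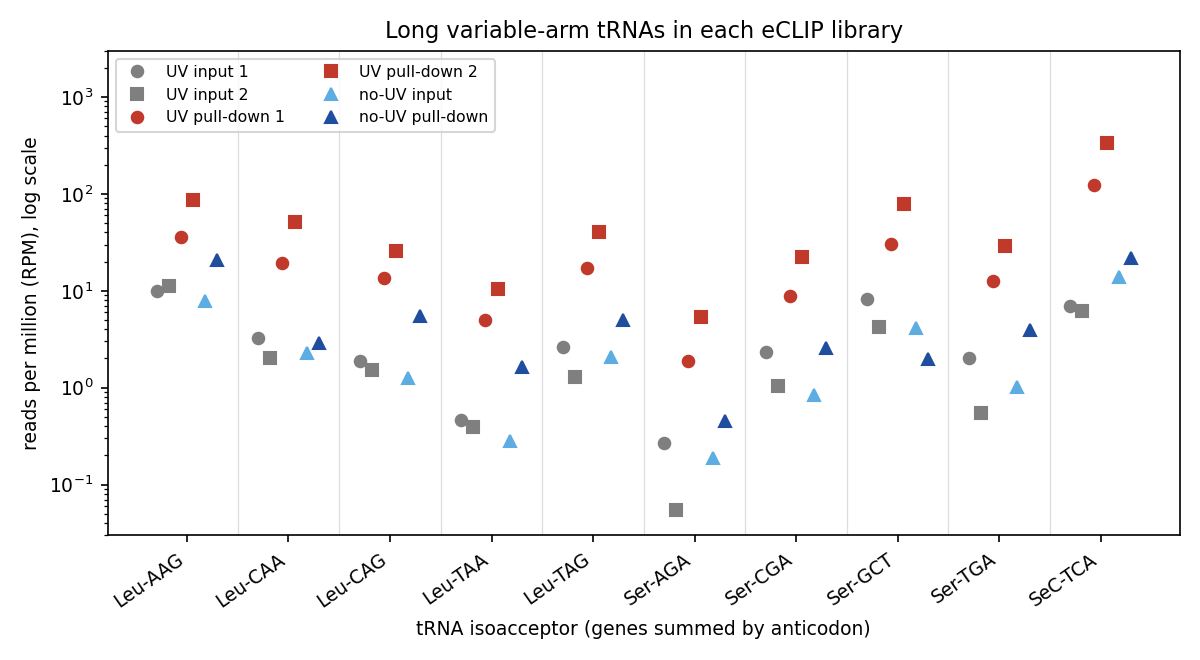
Level of the 10 tested isoacceptors in each of the 6 libraries, in RPM on a log scale, with genes summed by anticodon; circles and squares are replicates 1 and 2 of the UV libraries, and triangles the no-UV libraries. Both red UV pull-down points lie above both grey input points in every isoacceptor, and SeC-TCA reaches 336 RPM.

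tRNA-SeC-TCA-1-1, the tRNA that reads UGA for selenocysteine, carried nearly the whole SeC sum and had whole-number counts in all 6 libraries, so its reads were not divided with another gene. It had 123 and 113 reads in UV inputs 1 and 2, 2005 and 5311 reads in UV pull-downs 1 and 2, 194 reads in the no-UV input and 285 reads in the no-UV pull-down. As a single gene its edgeR log2 ratio was 5.22 (SE 0.53, adjusted p 0.00160), rank 3 among the 30 tested Ser, Leu and SeC genes. The other SeC gene, tRNA-SeC-759, has no anticodon in its name and never reached 1 read: its highest level was 0.0458 RPM, in UV pull-down 2.

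The inputs alone also differed for SeC-TCA. Its level in the no-UV input was 2.08 times the mean of the UV inputs and above both of them. Of the 10 tested isoacceptors, it was the only one with the no-UV input above both UV inputs, while 5 had it below both. Of all features tested beside the isoacceptors, 4.7% had the no-UV input above both and 86.7% below both, and of the 41 other tRNA groups 10 and 22 did. Only 1 no-UV input exists, so these input differences have no replicate check.

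The 5 leucine isoacceptors were all called higher in the UV pull-downs, as were 6.07% of all features and 39 of 41 other tRNA groups. Leu-AAG had the smallest ratio of the 5. Leu-AAG had 10.00 and 11.2 RPM in the UV inputs, 36.0 and 87.2 RPM in the UV pull-downs, 7.87 RPM in the no-UV input and 20.9 RPM in the no-UV pull-down. Its edgeR log2 ratio was 2.63 (SE 0.42, adjusted p 0.0111). Here the no-UV pull-down also stood above all 3 inputs.

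Leu-CAA, whose 4 genes are the longest of the leucine tRNA genes and contain an intron, had 3.26 and 2.05 RPM in the UV inputs, 19.2 and 51.0 RPM in the UV pull-downs, 2.28 RPM in the no-UV input and 2.92 RPM in the no-UV pull-down. Its edgeR log2 ratio was 3.82 (SE 0.52, adjusted p 0.00534). The no-UV pull-down lay within the range of the inputs.

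Leu-TAG had 2.62 and 1.29 RPM in the UV inputs, 17.2 and 40.2 RPM in the UV pull-downs, and 2.09 and 4.95 RPM in the no-UV input and pull-down (edgeR log2 ratio 3.97, SE 0.51, adjusted p 0.00402). Leu-CAG had 1.87 and 1.54 RPM in the UV inputs, 13.6 and 25.5 RPM in the UV pull-downs, and 1.25 and 5.45 RPM in the no-UV input and pull-down (edgeR log2 ratio 3.61, SE 0.36, adjusted p 0.00126). Leu-TAA, with few input reads, had 0.468 and 0.388 RPM in the UV inputs, 5.02 and 10.4 RPM in the UV pull-downs, and 0.283 and 1.65 RPM in the no-UV input and pull-down (edgeR log2 ratio 4.27, SE 0.49, adjusted p 0.00232). In these 3 isoacceptors the no-UV pull-down was above every input and below both UV pull-downs.

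The 4 tested serine isoacceptors were also called higher, beside the same 6.07% of all features and 39 of 41 other tRNA groups. Ser-AGA among them passed the minimum only through the pull-downs. Ser-GCT, which had the most serine reads in all libraries but the no-UV pull-down, had 8.32 and 4.21 RPM in the UV inputs, 30.5 and 79.2 RPM in the UV pull-downs, 4.17 RPM in the no-UV input and 1.97 RPM in the no-UV pull-down, its lowest library. Its edgeR log2 ratio was 3.24 (SE 0.53, adjusted p 0.0122), and a replicate block ended that call (edgeR adjusted p 0.0578). Ser-GCT reads the serine codons AGC and AGU, which belong to another codon box than those read by the remaining serine tRNAs.

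Among the UCN-box serine tRNAs, Ser-TGA had 2.03 and 0.543 RPM in the UV inputs, 12.7 and 28.9 RPM in the UV pull-downs, and 1.01 and 3.94 RPM in the no-UV input and pull-down (edgeR log2 ratio 4.10, SE 0.60, adjusted p 0.00735). Ser-CGA had 2.31 and 1.03 RPM in the UV inputs, 8.90 and 22.1 RPM in the UV pull-downs, and 0.848 and 2.54 RPM in the no-UV input and pull-down (edgeR log2 ratio 3.32, SE 0.54, adjusted p 0.0115). Ser-AGA had 0.267 and 0.0543 RPM in the UV inputs, 1.87 and 5.35 RPM in the UV pull-downs, and 0.188 and 0.449 RPM in the no-UV input and pull-down (edgeR log2 ratio 4.46, SE 0.86, adjusted p 0.0234). In all 3 the no-UV pull-down was above its input, and the UV pull-downs did not overlap any other library. For Ser-AGA the UV inputs held 6 reads together against 115 in the pull-downs, a ratio of 21.5 with a 95% counting interval of 9.59 to 59.9.

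The 10 tested isoacceptors were thus all called higher, or 9 of 10 with a replicate block, where the share of all features called higher in the table summed by anticodon was 6.07% and the count among the other tRNA groups was 39 of 41. Both UV pull-downs lay above both inputs in all 10, as in 10.3% of all features and in all 41 other tRNA groups. None was called lower, where 3.59% of all features were. The call therefore does not set the Ser, Leu and SeC isoacceptors apart from other tRNAs. With no filter on low values edgeR tested 942205 features of that table and called none, the isoacceptors included, of which 10 had an unadjusted p under 0.05, as had 4.41% of those features. The ratio of mean RPM in pull-down over input ran from 5.81 for Leu-AAG to 34.9 for SeC-TCA, with a median of 14.0, against a median of 13.7 and a range from 2.36 to 279 over the 37 other tested isoacceptors with an anticodon.

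The replicates differed in size but not in direction. Crosslinked pull-down 2 exceeded pull-down 1 in each of the 10 isoacceptors, from 1.87 times for Leu-CAG to 2.86 times for Ser-AGA, with a median of 2.45, against a median of 2.13 over the 37 others. The share of all tRNA in the library differed likewise, at 0.338% of the reads in pull-down 1 and 0.903% in pull-down 2. Crosslinked input 1 exceeded input 2 in 9 of the 10 isoacceptors, Leu-AAG being the exception at 0.891 times, and in 33 of the 37 others. The Ser sum was 1.98 times higher in input 1, and the Leu and SeC sums 1.10 and 1.15 times. Ser-AGA at 4.92 times and Ser-TGA at 3.74 times differed most between the inputs. Without UV input 1 the edgeR log2 ratio of Ser-AGA was 5.94 in place of 4.46, that of Ser-TGA 5.32 in place of 4.10, and that of Ser-CGA 3.98 in place of 3.32. Without UV input 2 it was 3.73 for Ser-AGA and 3.44 for Ser-TGA. Without UV pull-down 2 all 10 log2 ratios were lower, by 0.54 to 0.96, and without UV pull-down 1 all 10 were higher, by 0.39 to 0.59. In each of these fits 1 library stood alone in its group and was assumed to vary like the other group.

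Of the 225 genes, 51 carry an anticodon in their name and 174 carry only a number. Among all 225, 30 passed the minimum of 1 RPM and were tested as single genes, comprising 12 Ser, 17 Leu and 1 SeC gene. Only 10 of the 30 had an input mean of at least 1 RPM, and the other 20 passed through the pull-downs and had to be higher there. edgeR called 30 of these 30 higher, and in 30 of 30 both UV pull-downs lay above both inputs, where 6.44% and 10.8% of all 39872 features did so and 203 and 229 of the 230 other tested tRNA genes did so. With a replicate block 29 of 30 were called higher, beside 6.34% of all features, and with no filter edgeR called 0 of 121 (46 at an unadjusted p under 0.05, as were 4.44% of all features). None of the 30 was called lower, where 3.5% of all features were. The edgeR log2 ratios ran from 2.34 to 5.77 with a median of 3.63, against a median of 3.95 for the other tRNA genes and -0.21 for all features.

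**Figure D2:**
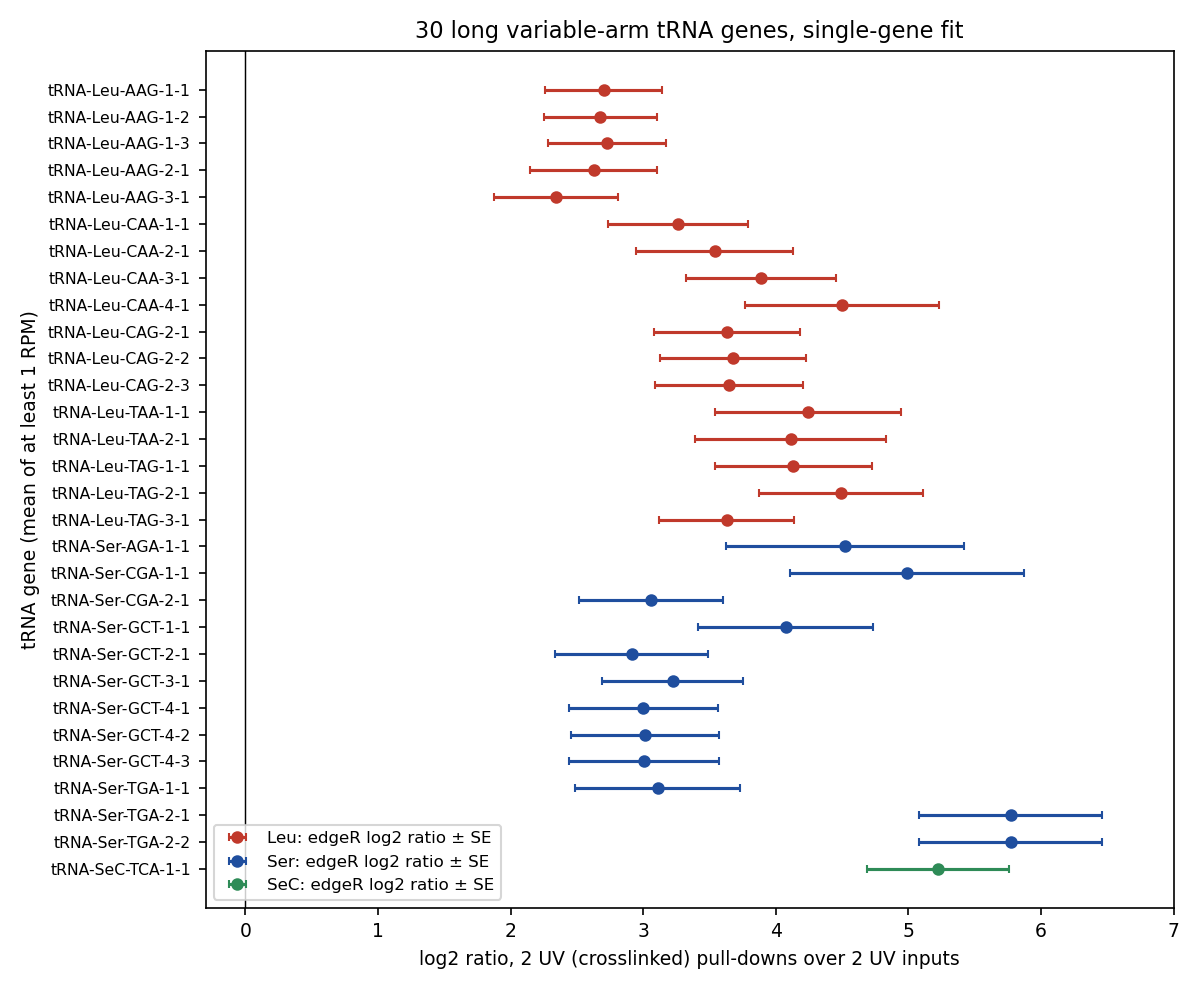
edgeR log2 ratio of the 2 UV pull-downs over the 2 UV inputs for the 30 tested genes, with bars of 1 SE, coloured by amino acid; 20 of the 30 passed the 1 RPM minimum through the pull-downs. The 5 Leu-AAG genes sit between 2.34 and 2.73, and the Ser-TGA-2 copies at 5.77 and tRNA-SeC-TCA-1-1 at 5.22 lie highest.

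The 5 genes with the lowest ratios were the 5 Leu-AAG genes. tRNA-Leu-AAG-1-3, the highest of them by level, had 2.05 and 2.34 RPM in the UV inputs, 8.05 and 19.3 RPM in the UV pull-downs, and 1.64 and 4.45 RPM in the no-UV input and pull-down (edgeR log2 ratio 2.73, SE 0.45, adjusted p 0.0127). tRNA-Leu-AAG-3-1 had 1.86 and 2.09 RPM in the UV inputs, 5.34 and 13.6 RPM in the UV pull-downs, and 1.39 and 3.80 RPM in the no-UV input and pull-down (edgeR log2 ratio 2.34, SE 0.47, adjusted p 0.0277). The ratios of tRNA-Leu-AAG-1-1, tRNA-Leu-AAG-1-2 and tRNA-Leu-AAG-2-1 lay between those at 2.70, 2.67 and 2.63, and all 5 differed by less than 1 standard error.

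Of the 5 genes with the highest ratios, tRNA-SeC-TCA-1-1 had 236 reads in the UV inputs, and the other 4 had 4 each after rounding. UV inputs 1 and 2 held 2.67 and 1 reads for each Ser-TGA-2 copy and for tRNA-Ser-AGA-1-1. For tRNA-Ser-CGA-1-1 they held 3.67 and 0 reads. The fractions show that part of these reads was divided with other features, which the counting intervals below do not allow for. tRNA-Ser-TGA-2-1 had 0.153 and 0.0543 RPM in the UV inputs, 3.86 and 8.32 RPM in the UV pull-downs, 0.283 RPM in the no-UV input and 1.72 RPM in the no-UV pull-down. Its edgeR log2 ratio was 5.77 (SE 0.69, adjusted p 0.00315), and the ratio of 194 to 4 reads was 54.5 with a 95% counting interval of 20.9 to 202. The copy tRNA-Ser-TGA-2-2 had nearly the same values, and its log2 ratio was the same to the digits given.

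tRNA-Ser-CGA-1-1 had 0.210 and 0 RPM in the UV inputs, 2.04 and 5.05 RPM in the UV pull-downs, and 0.0707 and 0.987 RPM in the no-UV input and pull-down (edgeR log2 ratio 4.99, SE 0.88, adjusted p 0.0173). tRNA-Ser-AGA-1-1 had 0.153 and 0.0543 RPM in the UV inputs, 1.29 and 3.87 RPM in the UV pull-downs, and 0.188 and 0.278 RPM in the no-UV input and pull-down (edgeR log2 ratio 4.52, SE 0.90, adjusted p 0.0271). The ratio of 113 to 4 reads was 31.7 with a 95% counting interval of 12.1 to 118 for the former, and that of 82 to 4 reads was 23.0 with an interval of 8.66 to 86.5 for the latter. These intervals overlap each other and that of tRNA-SeC-TCA-1-1, 30.6 to 39.8, so the order among these genes is not resolved.

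Genes of 1 isoacceptor had unlike ratios in Ser-TGA and Ser-CGA. tRNA-Ser-TGA-1-1 had 1.73 and 0.434 RPM in the UV inputs, 5.01 and 12.2 RPM in the UV pull-downs, and 0.448 and 0.494 RPM in the no-UV input and pull-down (edgeR log2 ratio 3.11, SE 0.62, adjusted p 0.0283, or 0.0632 with a replicate block). The Ser-TGA-2 copies thus had a ratio of 54.5 where tRNA-Ser-TGA-1-1 had one of 8.10, and the counting intervals, 20.9 to 202 and 5.75 to 11.7, did not overlap. tRNA-Ser-CGA-2-1 had 1.92 and 0.923 RPM in the UV inputs, 6.35 and 16.0 RPM in the UV pull-downs, and 0.636 and 1.56 RPM in the no-UV input and pull-down (edgeR log2 ratio 3.06, SE 0.54, adjusted p 0.0176). Its counting interval, 5.94 to 11.0, lay below that of tRNA-Ser-CGA-1-1. The Ser-TGA-2 copies and tRNA-Ser-CGA-1-1 were chosen for their high ratios and passed the minimum of 1 RPM only through the pull-downs, while tRNA-Ser-TGA-1-1 and tRNA-Ser-CGA-2-1 also reached it in the inputs, so the selection favours both gaps. The counting intervals leave out the spread between replicates, and the difference between genes was not tested with it.

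For the other isoacceptors the gene with the highest UV pull-down mean is described. That choice favours a higher ratio, and apart from tRNA-Ser-GCT-3-1 these genes passed the minimum only through the pull-downs. tRNA-Ser-GCT-3-1 had 2.15 and 1.08 RPM in the UV inputs, 8.09 and 20.4 RPM in the UV pull-downs, and 2.01 and 0.563 RPM in the no-UV input and pull-down (edgeR log2 ratio 3.22, SE 0.53, adjusted p 0.0135). tRNA-Leu-CAA-3-1 had 1.24 and 0.477 RPM in the UV inputs, 7.22 and 17.1 RPM in the UV pull-downs, and 1.07 and 1.14 RPM in the no-UV input and pull-down (edgeR log2 ratio 3.89, SE 0.57, adjusted p 0.00776). tRNA-Leu-TAG-1-1 had 1.11 and 0.320 RPM in the UV inputs, 7.02 and 16.1 RPM in the UV pull-downs, and 1.00 and 1.95 RPM in the no-UV input and pull-down (edgeR log2 ratio 4.13, SE 0.59, adjusted p 0.00724). In each of the 3, both UV pull-downs lay above the other 4 libraries.

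tRNA-Leu-CAG-2-2 had 0.258 and 0.209 RPM in the UV inputs, 2.06 and 4.19 RPM in the UV pull-downs, and 0.271 and 0.682 RPM in the no-UV input and pull-down (edgeR log2 ratio 3.68, SE 0.55, adjusted p 0.00877). tRNA-Leu-TAA-2-1 had 0.181 and 0.235 RPM in the UV inputs, 1.86 and 4.74 RPM in the UV pull-downs, and 1 read in each no-UV library, unlike the Leu-TAA sum, which was higher in the no-UV pull-down (edgeR log2 ratio 4.11, SE 0.72, adjusted p 0.0168). Nearest to the minimum of 1 RPM, tRNA-Ser-AGA-1-1 lay inside it with a mean of 1.34 RPM, and tRNA-Leu-CAG-1-1, tRNA-Leu-CAG-1-2 and tRNA-Leu-CAG-1-3 lay outside with 0.961 RPM each. The 5 Leu-CAG-1 copies together had 0.932 and 0.733 RPM in the UV inputs and 6.55 and 10.9 RPM in the UV pull-downs.

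Of the 17 genes whose values are given singly, 8 moved by more than 1.5 times without UV input 1, all upward. The edgeR log2 ratio was then 4.37 for tRNA-Ser-TGA-1-1, 5.20 for tRNA-Leu-TAG-1-1, 4.69 for tRNA-Leu-CAA-3-1, 3.67 for tRNA-Ser-CGA-2-1, 5.45 for tRNA-Ser-AGA-1-1 and 6.70 for both Ser-TGA-2 copies. The eighth, tRNA-Ser-CGA-1-1, had no read in the input that was left, so its fitted ratio there is not given. Without UV input 2 the log2 ratio was 3.51 for tRNA-Leu-TAG-1-1, 2.43 for tRNA-Ser-TGA-1-1 and 4.01 for tRNA-Ser-CGA-1-1, and without UV pull-down 1 it was 5.13 for tRNA-Ser-AGA-1-1. Without UV pull-down 2 all 17 were lower, by 0.61 to 0.98 on the log2 scale.

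The remaining members had few reads. The only Ser-GGA gene, tRNA-Ser-GGA-1-1, had 0.00716 and 0 RPM in the UV inputs, 0.0776 and 0.355 RPM in the UV pull-downs, and 0 and 0.0108 RPM in the no-UV input and pull-down. Of the 174 genes named by a number, 170 are Ser, 3 Leu and 1 SeC, and 155 had reads in 1 library only. The highest of them in any library was tRNA-Ser-7461, with 2 reads in UV pull-down 1, 4 reads (0.253 RPM) in UV pull-down 2 and none elsewhere. Among the 3 numbered Leu genes, tRNA-Leu-62122 was highest, with 1 read in each of 3 libraries.

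Summed, the 170 numbered Ser genes had 0.794 and 1.09 RPM in the UV inputs, 2.06 and 3.06 RPM in the UV pull-downs, 0 in the no-UV input and 0.304 RPM in the no-UV pull-down. That sum was called higher in edgeR (log2 ratio 1.503, SE 0.28, adjusted p 0.0211), below the 2.63 to 5.22 of the isoacceptors with an anticodon. With an input mean of 0.943 RPM it passed the minimum of 1 RPM only through the pull-downs, at 2.56 RPM, so the filter favoured that direction. The pull-down ratio was 2.71 with a 95% counting interval of 1.80 to 4.17, which does not reach that of any tested isoacceptor with an anticodon. Numbered Ser genes with reads numbered 29 and 34 in the UV inputs and 50 and 69 in the UV pull-downs, against 0 in the no-UV input and 4 in the no-UV pull-down. Features of all kinds with reads numbered 955696 and 971876 in the UV inputs, 1042138 and 1036536 in the UV pull-downs, 632734 in the no-UV input and 614337 in the no-UV pull-down.

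The composition of the tRNA reads differed between pull-down and input across many groups. Asp, Glu and Ala, the groups with the most reads in the UV inputs, had UV pull-down over input ratios of 4.19, 2.50 and 6.59. Those lie below the 8.78 of Leu, 9.44 of Ser and 34.9 of SeC. Most other groups had a higher fitted ratio than Ser or Leu, so a higher share was not particular to Ser, Leu and SeC. Ser, Leu and SeC genes took 3.72% and 2.82% of the tRNA reads in UV inputs 1 and 2 (95% Wilson intervals 3.46 to 4.01% and 2.60 to 3.06%) and 8.05% and 7.63% in UV pull-downs 1 and 2 (7.82 to 8.28% and 7.49 to 7.77%). The mean share was 7.84 ± 0.295% in the pull-downs and 3.27 ± 0.635% in the inputs (SD, n = 2 each). The no-UV libraries showed a similar difference, from 2.97% of the tRNA reads in the input (2.72 to 3.24%) to 7.32% in the pull-down (6.86 to 7.79%). The UV groups did not overlap, and the two-sided exact permutation p was 0.33, the smallest that 2 libraries against 2 allow, with 0.378 after Benjamini-Hochberg adjustment over 17 shares.

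SeC accounted for most of the difference in the Ser, Leu and SeC share with crosslinking, and Leu for most of it without. SeC held 0.673% and 0.584% of the tRNA reads in the UV inputs and 3.69% and 3.72% in the UV pull-downs, against 1.21% and 2.37% in the no-UV input and pull-down. The Leu share was 1.74% and 1.58% in the UV inputs and 2.70% and 2.37% in the UV pull-downs, and 1.21% and 3.94% in the no-UV input and pull-down, where the difference was wider. The Ser share was 1.31% and 0.659% in the UV inputs and 1.66% and 1.54% in the UV pull-downs, against 0.548% and 1.01% without crosslinking. Without SeC the difference of the Ser and Leu share between UV pull-downs and inputs was 1.49 percentage points, where with SeC it was 4.56.

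Within the 3 groups, SeC made up 18.1% and 20.7% of the reads in the UV inputs and 45.8% and 48.7% in the UV pull-downs. For each Leu read there were 0.387 and 0.370 SeC reads in the UV inputs, 1.37 and 1.56 in the UV pull-downs, 0.995 in the no-UV input and 0.600 in the no-UV pull-down. The pull-down thus held more SeC per Leu read than the input with crosslinking, and less without. For each Ser read there were 0.513 and 0.886 SeC reads in the UV inputs and 2.22 and 2.41 in the UV pull-downs, and 2.20 and 2.35 in the no-UV input and pull-down. Both ratios had an exact permutation p of 0.33 between the UV groups (0.500 adjusted over 3 ratios), again the smallest possible.

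**Figure D3:**
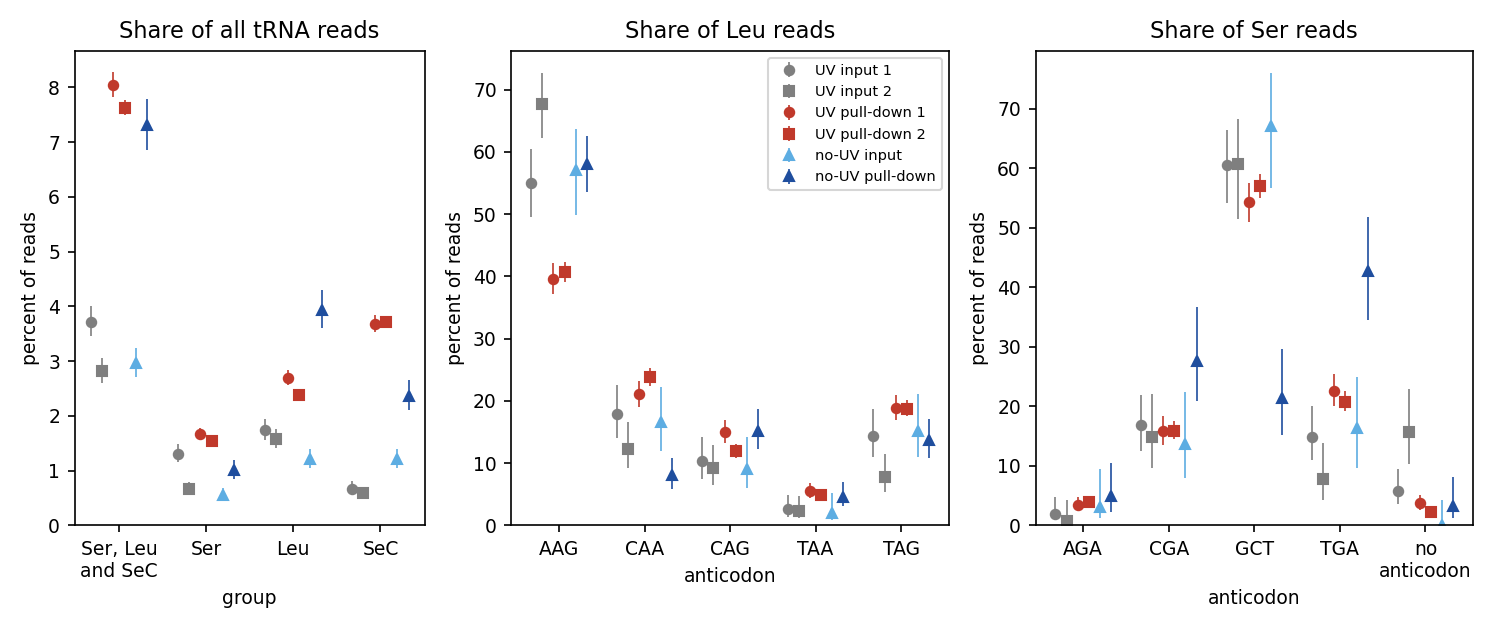
Share of reads, in percent with 95% Wilson intervals, in each of the 6 libraries: Ser, Leu and SeC among all tRNA reads (left), the leucine anticodons among Leu reads (middle) and the serine anticodons among Ser reads (right). SeC holds under 1% of tRNA reads in the UV inputs and 3.69% and 3.72% in the UV pull-downs, AAG holds 39.6% and 40.7% of Leu reads there, and GCT is at 21.4% of Ser reads only in the no-UV pull-down.

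Within leucine, Leu-AAG made up 54.9% and 67.6% of the Leu reads in the UV inputs and 39.6% and 40.7% in the UV pull-downs, but 57.1% and 58.1% in the no-UV input and pull-down. Leu-CAA went the other way, from 17.9% and 12.3% to 21.1% and 23.8% with crosslinking, and from 16.5% to 8.10% without. Within serine, Ser-GCT made up 60.6% and 60.7% of the Ser reads in the UV inputs, 54.3% and 57.0% in the UV pull-downs and 67.0% in the no-UV input, but 21.4% in the no-UV pull-down (95% Wilson interval 15.1 to 29.6%). Ser-TGA stood at 14.8% and 7.84% in the UV inputs, 22.7% and 20.8% in the UV pull-downs and 16.3% in the no-UV input, and reached 42.7% in the no-UV pull-down (34.5 to 51.9%). Between the UV groups each of these shares had an exact permutation p of 0.33.

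The no-UV pair, in which no covalent bond joined RNA to protein, was set beside the UV ratio. Without crosslinking the pull-down over input ratio was 2.62 for Leu, 1.58 for SeC and 1.48 for Ser, with 95% counting intervals of 2.21 to 3.11, 1.31 to 1.90 and 1.11 to 1.97. All 3 sums were therefore above their input in that pair, while 84.6% of all features of the table lay below it. Of the 10 isoacceptors, 9 were above the input without crosslinking, and Ser-GCT was below it with 26 reads against 59, a ratio of 0.474 with a 95% counting interval of 0.286 to 0.763. In the table summed by anticodon 84.5% of all features and 9 of the 41 other tRNA groups were below the input.

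**Figure D4:**
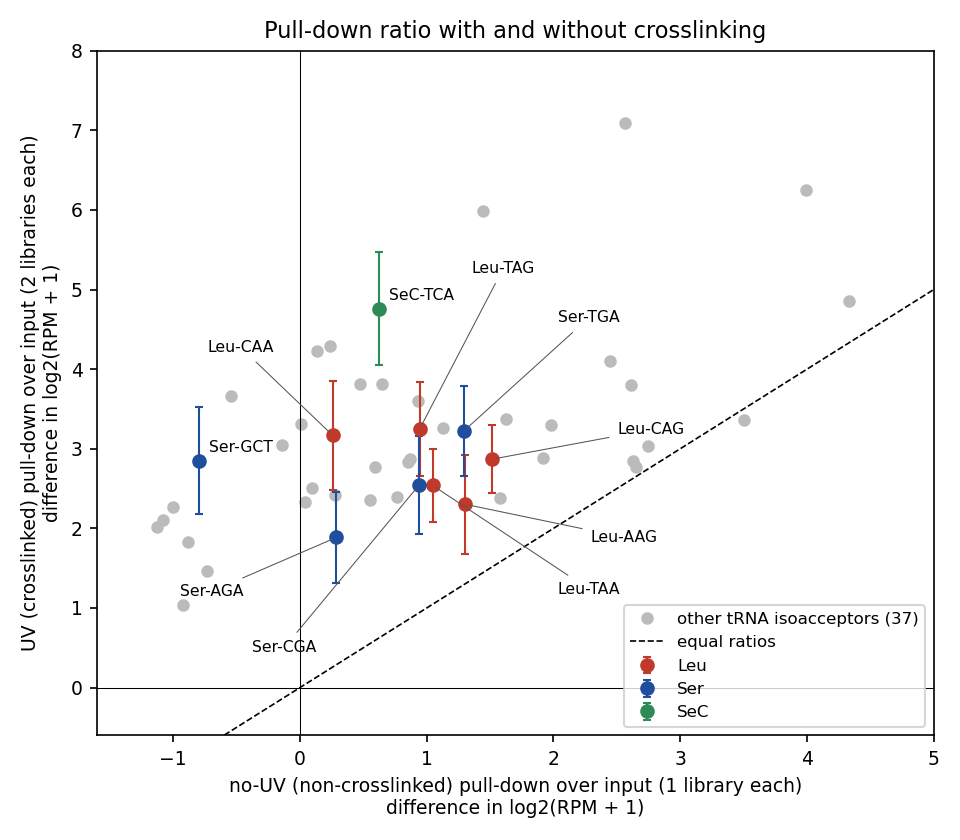
Difference in log2(RPM + 1) between pull-down and input for each tested isoacceptor, without crosslinking (horizontal, 1 library each) and with crosslinking (vertical, mean of 2, with bars spanning UV pull-downs 1 and 2 against the mean of the inputs). All 10 Ser, Leu and SeC isoacceptors lie above the dashed line of equal ratios, and Ser-GCT is the only one of them left of 0.

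The difference between the UV and the no-UV ratio was tested as an interaction in edgeR over all 6 libraries, in which the lone no-UV libraries are assumed to vary like the UV ones. The interaction was 4.46 on the log2 scale for SeC (SE 0.82, unadjusted p 0.00117, edgeR adjusted p 0.327), 2.67 for Ser (SE 0.89, unadjusted p 0.0215, edgeR adjusted p 0.3326) and 1.74 for Leu (SE 0.69, unadjusted p 0.0420, edgeR adjusted p 0.357). With TMM factors it was 3.91 for SeC, 2.13 for Ser and 1.18 for Leu (unadjusted edgeR p 0.00391, 0.0603 and 0.159). DESeq2 gave 2.05 for Ser and 1.11 for Leu (unadjusted DESeq2 p 0.0207 and 0.165). Among the isoacceptors SeC-TCA at 4.46, Ser-GCT at 4.21 (SE 1.03, unadjusted p 0.00521, edgeR adjusted p 0.329), Leu-CAA at 3.36 and Leu-TAG at 2.65 had an unadjusted edgeR p under 0.05. That is 4 of 10, beside 11.6% of all features and 19 of the 41 other tRNA groups with an interaction above 0 at that p. The median fitted interaction was 2.33 over the 10 isoacceptors and 2.37 over the 37 others with an anticodon, beside 0.56 over all features of that table.

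No interaction passed the adjusted threshold in edgeR: the count was 0 of the 10 isoacceptors and 0% of all features. The count depended on the method, since DESeq2 called 2 of the 10, SeC-TCA (interaction 3.84, DESeq2 adjusted p 0.00217) and Ser-GCT (interaction 3.60, DESeq2 adjusted p 0.0138), where it called 0.0328% of all features above 0, and limma called 0. Without UV input 1 edgeR called 3 (SeC-TCA, Ser-GCT and Leu-CAA), with calls above 0 rising from 0 to 88 over all features (0.222%). Without UV input 2 it called SeC-TCA and Ser-GCT, among 20 features (0.0504%). Without either UV pull-down it called none.

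Of the 30 tested genes, 8 were below their input in the no-UV pull-down, where 84.3% of all features and 70 of 230 other tRNA genes were. These were the 6 tested Ser-GCT genes together, tRNA-Leu-CAA-1-1 and tRNA-Leu-TAA-1-1. The Leu genes rest on 6 against 8 and 0 against 3 reads, and their 95% counting intervals, 0.230 to 2.65 and 0 to 2.60, include 1. The most abundant Ser-GCT gene, tRNA-Ser-GCT-3-1, had 7 reads in the no-UV pull-down against 28 in the input, a ratio of 0.269 with a 95% counting interval of 0.0991 to 0.629.

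The higher Ser-TGA level in the no-UV pull-down lay in the Ser-TGA-2 copies. The 2 Ser-TGA-2 copies together went from 0.565 RPM in the no-UV input to 3.44 RPM in the pull-down, where they were 87.5% of the isoacceptor, and tRNA-Ser-TGA-1-1 had 0.448 and 0.494 RPM. A like split was seen in Leu-TAA, in genes singled out after their values were seen. The 3 copies tRNA-Leu-TAA-5-1, tRNA-Leu-TAA-5-2 and tRNA-Leu-TAA-5-3, equal to each other in every library, had no read in UV input 1 or in the no-UV input, and together 0.00814 RPM in UV input 2, 1.18 and 1.12 RPM in the UV pull-downs and 1.57 RPM in the no-UV pull-down. They made up 95.4% of the no-UV Leu-TAA pull-down. tRNA-Leu-TAA-2-1 had 1 read there and tRNA-Leu-TAA-1-1 none, while tRNA-Leu-TAA-1-1 reached 1.86 and 4.34 RPM in the UV pull-downs. These counts rest on 1 library and few reads.

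A table of enrichment ratios that the authors deposited lists 39 of the 225 genes, all above 1, with a median of 21.3 and a range from 6.18 to 189.7. The authors' deposited table has 74.6% of all features and 283 of 283 other tRNA genes above 1. In the authors' deposited table the median was 20.7 for 283 other tRNA genes and 1.37 for all 216085 features. The authors' deposited table gives the highest ratio to tRNA-Ser-TGA-2-1 at 189.7, with its copy tRNA-Ser-TGA-2-2 next at 189.5, then 87.4 for tRNA-Ser-AGA-1-1 and 79.8 for tRNA-SeC-TCA-1-1. The Leu-AAG genes, lowest in the edgeR fit, have 7.74 to 11.0 in the authors' deposited table. tRNA-Ser-CGA-1-1 differs, with 6.81 in the authors' deposited table beside 31.7 for its ratio of 113 to 4 reads, or a fitted log2 ratio of 4.99. That deposited table belongs to the same series, so likeness to it is no independent check. How the authors combined the libraries in that table is not stated in the sources used here.

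RefSeq's mouse annotation (GRCm38.p6) lists 47 nuclear Ser and Leu tRNA genes with an anticodon, 19 of them on chromosome 13. The Leu-CAA genes span 105 to 107 bases, the only Ser-GGA gene 73 bases, and the other 42 genes 82 or 83 bases. The Ser-GGA gene lies at chr11:100538158-100538230. RefSeq and the files number genes differently, so the other genes are not paired here one by one, and the files give no coordinates.

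Of the genes for proteins that charge, process or export tRNAs, none of the 6 tested passed the test, and the listed genes for converting serine to selenocysteine on the tRNA had too few reads to be tested or no feature here. Of 16 listed genes, 15 had an unspliced transcript feature and 6 reached 1 RPM. edgeR called 0 of the 6 in either direction, with adjusted p from 0.102 to 0.598, where 9.93% of all single features were called in one direction or the other. An unadjusted edgeR p under 0.05 was found for 4 of the 6 and for 22.8% of all features. DESeq2 also called 0 of the 6, with 0 at an unadjusted p under 0.05, against 6.91% and 9.2% of all features. limma called 0 of the 6, with 4 at an unadjusted p under 0.05, against 12.1% and 33% of all features. Their median log2 ratio was -0.46, beside -0.52 for all tested unspliced transcripts, and 5 of the 6 were below 0. Sars, the seryl-tRNA synthetase gene, had 6.81 and 4.45 RPM in the UV inputs and 3.10 and 3.41 RPM in the UV pull-downs (edgeR log2 ratio -0.69, SE 0.23, adjusted p 0.142). Lars, the cytosolic leucyl-tRNA synthetase gene, had a log2 ratio of -0.35 (SE 0.18, edgeR adjusted p 0.315), and Lars2, its mitochondrial counterpart, one of 0.75 (SE 0.23, edgeR adjusted p 0.115).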

How the data were processed

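Per the labels' protocols, RNA of RNase I treated lysates from transfected P19 cells was sequenced before (input) and after capture of Gtsf1 on Strep beads. For each of the 6 libraries the authors deposited expected counts per annotated feature, in which reads matching several features were split into fractions, and RPM values, which are the same counts scaled to all reads of the library, unannotated ones too. The authors' deposited table of 1 enrichment ratio per feature was used only where named. The submitters' processing notes name bcl2fastq 2.19, STAR 2.5.2b, bedtools 2.29.0 and the build mm10, and do not give their roles. The annotation used and whether PCR duplicates were removed are not given in the sources used here.

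Reads without annotation (6.99 to 14.4% of a library) were left out of library sizes and tests. Expected counts were rounded to whole numbers and the UV (crosslinked) pull-downs were compared with the UV inputs (n = 2 each) by edgeR's quasi-likelihood test (edgeR 4.0.16, R 4.3.3), without scaling factors, over all features whose mean reached 1 RPM in the 4 crosslinked libraries. A feature was called where its p, adjusted by Benjamini-Hochberg over the whole table, was under 0.05. Of 39872 features tested, 12932 had counts identical to an earlier feature. The same fit was run with tRNA genes summed by anticodon and by amino acid, and the scripts were tested on simulated data. Descriptive differences use log2(RPM + 1), which understates changes of genes with few reads. Counting intervals are at the 95% level, use counts rounded to whole reads and cover counting error only. Reads copied by PCR or divided between genes are not independent molecules.

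Alternatives were other filters, pseudocounts and library sizes, TMM factors, DESeq2 1.42.0, limma 3.58.1 with a trend, a replicate block, identical features counted once, all 6 libraries in 1 fit, and each crosslinked library left out. Genes were named by rule: every sum, both SeC genes, the gene with the highest crosslinked pull-down mean in each isoacceptor, and the tested genes with the 5 highest and 5 lowest edgeR log2 ratios. Other genes named were chosen after their values were seen. The members and lists were chosen with earlier results of these data known. No tRNA sequence was used here.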

Additional observations from a re-analysis of the deposited data

Results flagged for a closer look

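Ser-GCT was higher in both UV pull-downs and lower in the no-UV pull-down than in the inputs of the same kind, unlike the other 9 tested Ser, Leu and SeC isoacceptors. Among the 41 other tRNA groups, all of which had both UV pull-downs above both inputs, 9 were also below their input without crosslinking, as were 84.5% of all features. On the log2(RPM + 1) scale the difference between pull-down and input was 2.85 with crosslinking (n = 2 each) and -0.80 without (1 library each). The interaction was 4.21 on the log2 scale (SE 1.03, unadjusted p 0.00521), which missed the threshold (edgeR adjusted p 0.329). DESeq2 gave 3.60 and called it (DESeq2 adjusted p 0.0138). With 1 UV library left out the edgeR interaction ran from 3.34, without UV pull-down 2, to 4.76, without UV input 1. tRNA-Ser-GCT-3-1, the Ser-GCT gene with the highest pull-down level, showed the same opposite directions, at 2.44 with crosslinking and -0.95 without. Its edgeR interaction of 5.00 (SE 1.27, unadjusted p 0.00672) missed the threshold too (edgeR adjusted p 0.335). The gene is part of the Ser-GCT sum, so these are not independent results.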

How the results depend on the processing

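With no filter on low values, edgeR called 0 of 121 Ser, Leu and SeC genes (46 at an unadjusted p under 0.05, as were 4.44% of all features) and 0 of 11 isoacceptor sums (10 at that p, beside 4.41%). Under that setting the log2 ratios were 3.34 for Ser (adjusted p 0.489), 3.23 for Leu (0.349) and 5.22 for SeC (0.242). For the single genes 942743 features were then tested in place of 39872. With a minimum of 5 RPM, 13 of 13 tested genes were called, beside 9.29% of all features. On the separate scale of log2(RPM + pseudocount) differences, the median of the genes, 2.06 with a pseudocount of 1 RPM, was 3.14 with 0.1 RPM, 1.09 with 5 RPM and 0.022 with 1 RPM and no filter.

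The replicate numbers were not shown to pair the libraries: the deviations of same-numbered libraries correlated at 0.111, and 2 pairs give little to judge by. With a replicate block, 29 of 30 genes and 9 of 10 isoacceptor sums were called (6.34% and 5.98% of all features), and the Ser sum was no longer called (log2 ratio 3.24, adjusted p 0.0512). The losses were tRNA-Ser-TGA-1-1 (adjusted p 0.0632) and Ser-GCT (3.12, adjusted p 0.0578), while Leu at 3.10 and SeC at 5.05 kept their calls.

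Leaving out 1 UV library at a time gave log2 ratios of 2.52 to 3.89 for Ser, 2.46 to 3.73 for Leu and 4.32 to 5.77 for SeC. The library left alone in its group was assumed to vary like the others. Medians of the genes were 1.497 to 2.615 on the log2(RPM + 1) scale, and the share of tRNA reads differed by 4.12 to 5.01 percentage points. That difference was 1.49 with SeC left out. The interactions ranged from 1.86 to 3.22 for Ser, from 0.97 to 2.24 for Leu and from 3.55 to 5.01 for SeC, with 0 to 3 isoacceptors called (0% to 0.222% of all features). Without UV input 1, the Ser interaction of 3.22 (edgeR adjusted p 0.0300) and the SeC interaction of 4.55 (edgeR adjusted p 0.00239) passed the threshold, and without UV input 2 that of SeC did (4.38, edgeR adjusted p 0.0108). DESeq2 gave a SeC interaction of 3.84 (adjusted p 0.00197) and called 2 isoacceptor interactions (0.0328% of all features). The interaction of the numbered Ser genes was -3.86 in edgeR and 0.48 in limma, and passed the threshold in neither. The causes were not tested. The other alternatives kept direction and call for the 3 amino acid sums.

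Depth limits the genes with few input reads: 20 of the 30 tested genes passed the minimum only through the pull-downs. The ratios of tRNA-Ser-TGA-2-1, tRNA-Ser-TGA-2-2, tRNA-Ser-CGA-1-1 and tRNA-Ser-AGA-1-1 rest on 4 UV input reads each, rounded from divided reads.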
